A study of Oryza sativa with 6 samples.

Results

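C3H zinc finger genes of rice were followed in stem bases of the *crl1* mutant and of WT plants. Members were taken by name: a probe set counted when the RefSeq rice annotation paired it with 1 gene whose symbol or synonym, without the prefix Os, is C3H and a number. Of 53 such genes, 50 had at least 1 probe set of their own, and the brightest probe set stood for each gene. A probe set was tested where its signal, as a geometric mean of the 6 arrays, was 20 or more, and 44 of the 50 genes passed, among 15040 genes tested in all. The 6 measured genes under that minimum were C3H1, C3H3, C3H10, C3H34, C3H43 and C3H47, and C3H38, C3H56 and C3H67 had no probe set of their own.

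The tested plants were *crl1* (crown rootless1) mutants and the reference was WT, both of *Oryza sativa* cultivar Taichung 65 and both sampled as 7-day-old plantlets grown on agar medium without further treatment. Each genotype had 3 arrays, labelled experiments 1 to 3, and each array measured RNA pooled from 20 stem bases, so an array is a pool and not a plant. The labels name the mutant by its phenotype and give no allele. CRL1 is a LOB-domain transcription factor needed for crown root formation, and a stem base of the mutant lacks the crown root primordia that a WT stem base holds. In such bulk tissue, fewer cells of a type and less RNA per cell cannot be told apart.

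A C3H or CCCH finger is a short protein fold in which 3 cysteines and 1 histidine hold a zinc ion. Many proteins with such fingers bind RNA and act on the splicing, export, stability or decay of messenger RNA, and some act on transcription. In plants the family is best known from stress responses, flowering time, leaf senescence and the splicing machinery. The rice genes named C3H hold all of these kinds, so that the name gives the type of finger and no single pathway.

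The values are Affymetrix MAS5 signals on a linear scale, brought by the depositors to a common trimmed mean on every array (99.99 on each of the 6 when recomputed). The median probe-set signal was 15.96, 16.58 and 12.48 on *crl1* arrays 1, 2 and 3, and 15.22, 15.68 and 12.65 on WT arrays 1, 2 and 3. The brightest signal was 5761 and 5201 on the *crl1* and WT arrays of replicate 3, against 15946 to 18869 on the other 4 arrays. Replicate 3 therefore stood apart from replicates 1 and 2 in both genotypes, before any gene was compared. The labelled tissue carried signals of shoot meristem genes (OSH1, OSH6 and OSH71, 189.7 to 1223 on all arrays) and of green leaf genes (CAB2R 3934 to 9305, RBCS 422 to 955). Root genes ran between QHB at 10.9 to 24.4 and LSI1 at 657 to 1021, and of the seed storage genes GLUA1 reached at most 6.61 while GLB1 was at 500.2 to 569.6. CRL1 itself was not matched to a probe set and was not checked here.

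The C3H genes were moderately bright and steady. Among the 44 tested members the geometric mean signal ran between 33.6 and 948 with a median of 217, and 36 of them lay between 100 and 1000. None reached 1000, where 1363 of the 15040 tested genes lay. Probe sets bind with different strength, so these signals give no order of transcript amount between genes. The spread of 1 probe set over the 6 arrays can be compared: the highest array exceeded the lowest 1.38-fold in the median member, against 1.56-fold in the median gene. In 31 of 44 members (70.5%) this range was under 1.5-fold, against 43.2% of all tested genes and 44.6% of genes with a mean signal of 30 to 1000. That set does not match the members' brightness closely, since 9078 of the 15040 tested genes lay between 100 and 1000, against 36 of 44 members. The part of brightness in the narrower range was not tested. C3H53 varied least, 1.09-fold, followed by C3H15 with 1.13-fold. By the brightest probe sets, only C3H60 (4.31-fold), C3H37 (3.23-fold) and C3H39 (2.30-fold) varied more than 2-fold, which is 6.82% of members against 22.8% of genes. Other tested probe sets of C3H55 (52.0 to 138), C3H12 (107 to 245) and C3H35 (19.5 to 40.0) also ranged over more than 2-fold.

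**Figure D1:**
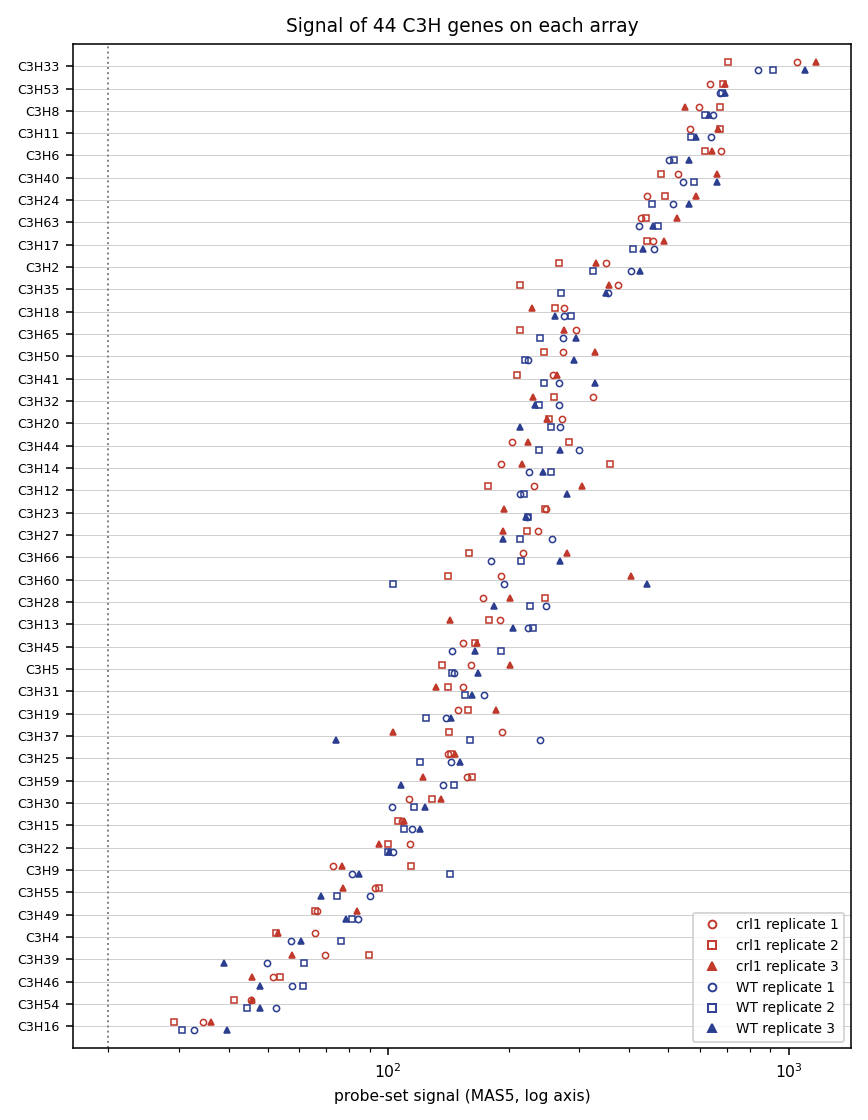
MAS5 signal (horizontal log axis) of the 44 tested C3H genes, 1 row per gene by its brightest probe set, on the 3 *crl1* arrays (red) and the 3 WT arrays (blue). The dotted line is the signal minimum of 20. Most rows are tight, and C3H60 and C3H37 are the widest.

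The first comparison asked which C3H genes differ in *crl1* from WT. The test was limma on log2 signals with the replicate number as a block, adjusted by Benjamini-Hochberg over all 25045 tested probe sets, with an adjusted p under 0.05 as the threshold. No C3H gene passed it, 0 of 44, in a background where 0.651% of all tested probe sets did (163 of 25045, 0.204% higher and 0.447% lower in *crl1*). At an unadjusted p under 0.05 there were 4 members, 9.09%, against 9.76% of all tested probe sets. C3H39 and C3H6 were on the higher side in *crl1*, and C3H13 and C3H2 on the lower side.

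The members' differences were also small. The median log2 difference was -0.02 over the 44 members and -0.01 over all tested genes, with 19 members above 0 and 25 below. The median size, sign aside, was 0.09 in the members and 0.11 in all genes. By the brightest probe sets, only C3H39 differed by more than 0.5, 2.27% of members against 4.93% of genes. The highest fitted value was 0.53, for C3H39, and the lowest -0.37, for C3H13. The 95% intervals ran between -0.64 and 0.93 at their outermost, so that for the brightest probe set of each gene all 44 excluded a 2-fold difference in either direction, and 41 excluded a difference of 1.5-fold. A second probe set of C3H55 had an interval that includes a 2-fold difference. The median standard error of a member was 0.13. Of the root genes, LSI2 had 27.8, 26.7 and 48.2 in *crl1*, against 63.4, 55.1 and 72.0 in WT. Its log2 difference of -0.94 ± 0.22 had a limma adjusted p of 0.127. Among the 5 tested root genes 1 was above 0, and none passed. Their part in the members' differences was not tested.

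**Figure D2:**
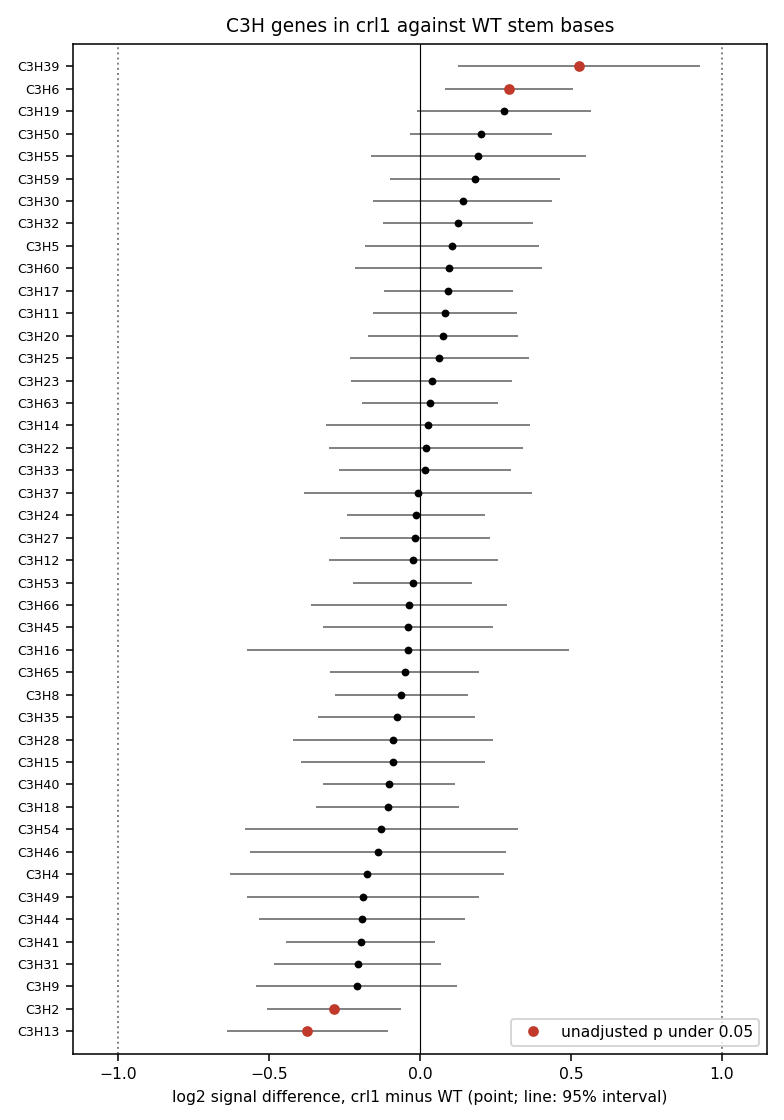
Difference in log2 signal, *crl1* minus WT (horizontal axis), of the 44 tested C3H genes, 1 row per gene, with points for limma estimates from 3 arrays per genotype and lines for 95% intervals. Dotted lines mark 2-fold differences, which no interval reaches. Red points are the 4 genes with an unadjusted p under 0.05, none of which passed after adjustment.

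C3H6 had signals of 676, 619.7 and 642 on the *crl1* arrays, against 502, 516 and 564 on the WT arrays. Every *crl1* array was above every WT array. Its means were 646 ± 28.3 in *crl1* and 527 ± 32.4 in WT (SD, n = 3 each), a log2 difference of 0.29 ± 0.09 (SE) with a limma p of 0.0119 and an adjusted p of 0.318. C3H39 had 69.5, 89.6 and 57.7 in *crl1*, against 49.98, 61.76 and 38.99 in WT. The genotypes overlapped in C3H39, since both moved between replicates, but within each replicate *crl1* was above WT, by 1.39-, 1.45- and 1.48-fold. The fit with the replicate as a block gave 0.53 ± 0.18 on the log2 scale, an interval of 0.13 to 0.93, and a limma adjusted p of 0.351.

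C3H13, also annotated as bip105, had signals of 191, 179 and 142 in *crl1*, against 224, 230.4 and 205 in WT. All *crl1* arrays lay below all WT arrays, and the means were 171 ± 25.2 in *crl1* and 219.6 ± 13.4 in WT (SD, n = 3 each). The log2 difference was -0.37 ± 0.12 with a limma adjusted p of 0.313. By the brightest probe sets, its unadjusted limma p of 0.0112 was the smallest of any member. Second probe sets of C3H55 and C3H2 had smaller limma p (0.000621 and 0.00630). C3H2 is OsDOS, a nuclear CCCH protein known for delaying leaf senescence in rice. Its signals were 350.0, 267 and 329.8 in *crl1*, against 404, 325 and 426 in WT. By this brightest probe set the groups overlapped, since *crl1* arrays 1 and 3 were above WT array 2, and in each replicate *crl1* was the lower one. The log2 difference was -0.29 ± 0.10 with a limma adjusted p of 0.364. A second probe set of C3H2 gave -0.36 ± 0.10 with an adjusted p of 0.239, on the same side of 0. It had 287, 229 and 262 in *crl1*, against 353, 288 and 356 in WT, and here the groups did not overlap.

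By the brightest probe sets, the genotypes did not overlap in 5 members, 11.4%, where 6.96% of all tested genes were like this. Beside C3H6 and C3H13 they were C3H19, C3H31 and C3H15, named here after their values were seen. C3H19 had 149.8, 159 and 186 in *crl1*, against 139, 124 and 143 in WT, with a log2 difference of 0.28 and a limma adjusted p of 0.532. C3H31 had 154, 141 and 131 in *crl1*, against 174, 156 and 162 in WT, and a difference of -0.21 with an adjusted p of 0.653. C3H15 was lower by 0.09 on the log2 scale, with 108, 106 and 109.5 in *crl1*, against 115, 109.6 and 120.1 in WT. None of the 3 reached an unadjusted p of 0.05. Within all 3 replicates, *crl1* was the higher one in 7 members (15.9%, all genes 14.4%) and the lower one in 8 (18.2%, all genes 16.6%). A difference of over 2-fold within a replicate occurred in 0 of 44 members and in 5.07% of genes.

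The members with known functions did not pass the test either, in *crl1* against WT. C3H20 is Ehd4, which promotes flowering in rice, and its signals were 272, 252 and 249.9 in *crl1*, against 268, 256 and 213 in WT. The difference of 0.08 had an interval of -0.17 to 0.32 and a limma adjusted p of 0.887. C3H46 is LIC, a regulator in brassinosteroid signalling that acts on leaf and tiller angle. It was dim, with 51.7, 53.6 and 45.7 in *crl1*, against 57.7, 61.3 and 48.0 in WT, and it was lower in *crl1* in each replicate, with a difference of -0.14 ± 0.19 and an adjusted p of 0.878. C3H41 is MKRN, a makorin, a protein that joins C3H fingers with a RING finger of the ubiquitin ligase type. Its signals were 258, 209.5 and 264 in *crl1*, against 267, 245 and 328 in WT, a difference of -0.20 ± 0.11 with an adjusted p of 0.627. C3H60 is U2AF35A, the small subunit of the splicing factor U2AF, which recognises the 3′ splice site, and its difference was 0.09 ± 0.14 with an adjusted p of 0.888.

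The 4 brightest members were close between the genotypes. C3H33 had 1049, 707 and 1169 in *crl1*, against 836, 912 and 1097 in WT, and differed by 0.02 ± 0.13 (limma adjusted p of 0.986). C3H53 had 635, 685 and 695 in *crl1*, against 674, 683 and 692 in WT, a difference of -0.02 ± 0.09 (adjusted p of 0.965). The intervals of both include 0. C3H8 gave -0.06 ± 0.10 (adjusted p of 0.900), with 599, 673 and 552 in *crl1*, against 648, 618 and 631 in WT. C3H11 gave 0.08 ± 0.11 (adjusted p of 0.869), with 568, 674 and 665 in *crl1*, against 639.8, 569 and 589 in WT. In each of these 4 genes the arrays of the genotypes overlapped.

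Members that lie next to each other in the annotation were compared by their own values. C3H22 and C3H23 are direct neighbours on chromosome 3, and they differed in *crl1* by 0.02 and 0.04 on the log2 scale. On chromosome 1, C3H4, C3H5 and C3H6 lie near each other, with 3 genes between C3H4 and C3H5 and 1 gene between C3H5 and C3H6. Their differences were -0.17, 0.11 and 0.29, and only C3H6 had an unadjusted p under 0.05. Chromosome 1 holds 11 of the 50 measured members, the most of any chromosome.

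By the brightest probe sets, C3H13 was the member with the smallest p in *crl1* against WT. The profiles most like its own across the 6 arrays were those of C3H18 (Pearson r of 0.919), C3H31 (0.886) and C3H46 (0.794). These are descriptions over arrays that share genotypes and replicates. C3H18 had 276, 261 and 229 in *crl1*, against 275, 287 and 260.4 in WT. By the brightest probe sets of C3H13 and C3H18, the lowest array was *crl1* replicate 3 and the highest WT replicate 2. The other tested probe sets of C3H18 were highest in WT replicate 3 (197 and 128). They were lowest in *crl1* replicate 3 (135) and in *crl1* replicate 2 (93.4), respectively.

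**Figure D3:**
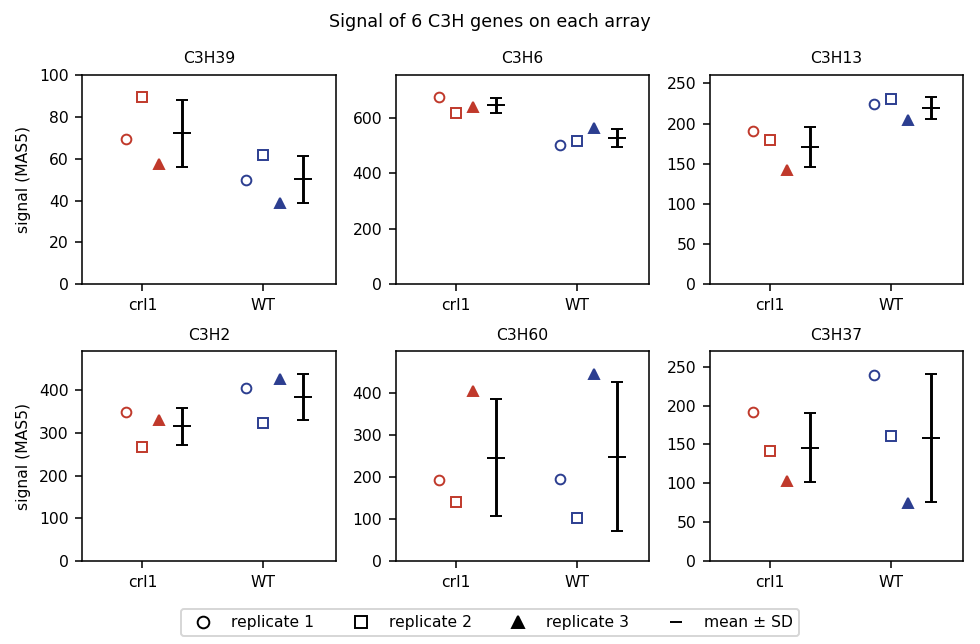
MAS5 signal (vertical axis from 0) of C3H39, C3H6, C3H13, C3H2, C3H60 and C3H37 on each *crl1* and WT array, with symbols for the replicate number and bars for mean ± SD over 3 arrays. C3H6 and C3H13 separate the genotypes, and C3H60 and C3H37 separate replicate 3 from replicates 1 and 2 in both genotypes.

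In 14 members more than 1 probe set was available, and in C3H55 they disagreed in *crl1* against WT. The brightest, with a geometric mean of 82.3, had 92.8, 95.1 and 77.0 in *crl1*, against 90.1, 74.6 and 67.8 in WT, a difference of 0.19 ± 0.16 (limma adjusted p of 0.767). A second was almost as bright, with a mean of 81.8, and had 58.3, 80.4 and 52.0 in *crl1*, against 95.2, 138 and 93.2 in WT. Here all *crl1* arrays lay below all WT arrays, and the log2 difference was -0.78 ± 0.15 with an interval of -1.13 to -0.43, a limma p of 0.000621 and an adjusted p of 0.0673. Another C3H55 probe set, with a mean of 0.616, was under the minimum and not tested. The second probe set did not pass, but its difference between the genotypes was the largest of any tested C3H probe set. Which of the tested probe sets follows the C3H55 transcript was not tested.

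The dimmest members above the signal minimum of 20 were C3H16 (geometric mean of 33.6), C3H54 (46.1) and C3H46 (52.7), and the brightest below it were C3H43 (17.4), C3H3 (15.01) and, well below, C3H10 (5.83). C3H16 had 34.5, 29.2 and 36.2 in *crl1*, against 32.8, 30.5 and 39.5 in WT, and C3H54 had 45.5, 41.2 and 45.7 in *crl1*, against 52.6, 44.4 and 47.8 in WT. C3H43 had 19.4, 19.6 and 10.8 in *crl1*, against 24.1, 21.6 and 12.8 in WT, and C3H3 had 12.97, 10.8 and 21.1 in *crl1*, against 16.6, 17.1 and 13.6 in WT. C3H10, a gene linked to drought tolerance in rice, was low everywhere, with 2.04, 1.41 and 8.50 in *crl1*, against 11.7, 11.6 and 11.8 in WT. The groups did not overlap in C3H10, but signals this low are near the bottom of the MAS5 scale and were not tested in the main comparison. C3H34, C3H47 and C3H1 had geometric means of 3.16, 1.85 and 0.795.

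The second comparison set replicate 3 against replicates 1 and 2, with genotype as a term. Replicate 3 was singled out with earlier results of these arrays known, and its *crl1* and WT arrays carry the same experiment number. The p-values treat those arrays as independent, compare 1 experiment with the other two, and are therefore too small. Of 44 members, 2 passed the limma threshold, 1 higher and 1 lower in replicate 3, 4.55% of members. The background was 15.9% of all tested probe sets (3987 of 25045, 7.53% higher and 8.39% lower) and 17.9% of genes. At an unadjusted p under 0.05 there were 10 members, 22.7%, against 31.4% of probe sets.

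C3H60, the splicing factor subunit U2AF35A, was higher in replicate 3. Its signals were 403 in *crl1* and 444 in WT in replicate 3, against 191 and 141 in *crl1* and 195 and 103 in WT in replicates 1 and 2. Both replicate 3 arrays were above all others. The log2 difference was 1.47 ± 0.25 (SE) with an interval of 0.89 to 2.05 and a limma adjusted p of 0.00756. Taken within each genotype it was 1.29 in *crl1* and 1.65 in WT. U2AF35B, the second rice gene of this subunit, is C3H38, which had no probe set of its own, and whether the C3H60 probe set also reads it was not tested.

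C3H37 was lower in replicate 3, with 103 in *crl1* and 74.2 in WT, against 192 and 142 in *crl1* and 239 and 160.5 in WT in replicates 1 and 2. Again both replicate 3 arrays lay outside the range of the others, below it. The log2 difference was -1.04 ± 0.24, with an interval of -1.59 to -0.49 and a limma adjusted p of 0.0224. It was -0.68 within *crl1* and -1.40 within WT. Leaving out 1 of the replicate 3 arrays ended both calls. Without the *crl1* array the adjusted p was 0.0852 for C3H60 and 0.0797 for C3H37, and without the WT array it was 0.159 for C3H60 and 0.337 for C3H37. Without the variance trend C3H37 had an adjusted p of 0.0620, and without replicate 1 the count of called members was 8.

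**Figure D4:**
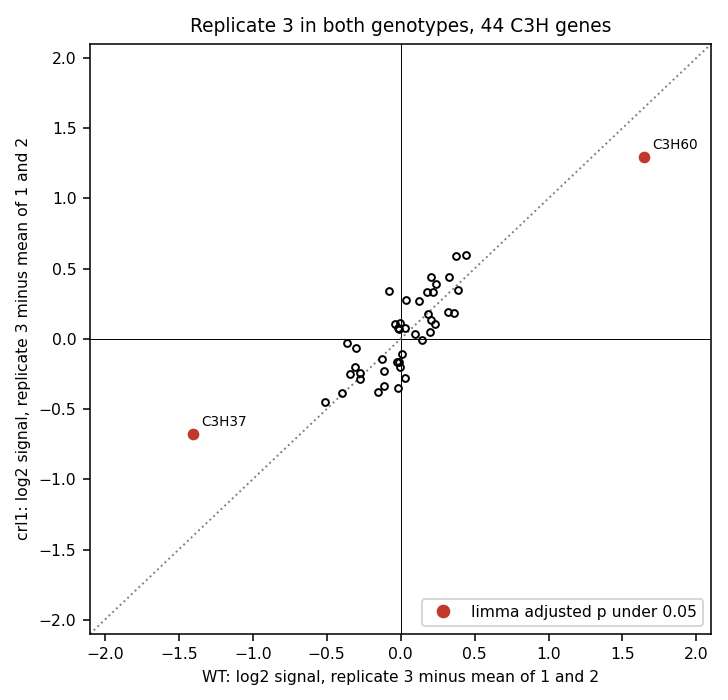
Log2 signal of replicate 3 minus the mean of replicates 1 and 2 for the 44 tested C3H genes, within *crl1* (vertical axis) against within WT (horizontal axis). The dotted line marks equal differences. C3H60 (1.29 in *crl1*, 1.65 in WT) and C3H37 (-0.68 in *crl1*, -1.40 in WT) are far from the other 42 genes.

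The differences of the remaining members were mostly small. The median size of the difference was 0.19 in the members and 0.27 in all genes, and 3 members (6.82%) exceeded 0.5, against 24.1% of genes. The third beside C3H60 and C3H37 was C3H66, with 280.2 in *crl1* and 268 in WT in replicate 3, against 217 and 159 in *crl1* and 181 and 215 in WT in replicates 1 and 2. Its difference of 0.52 ± 0.16 had a limma adjusted p of 0.0647. C3H12 is known in rice for a part in resistance to bacterial blight. Its brightest probe set had 305 in *crl1* and 279.9 in WT in replicate 3, against 231 and 177 in *crl1* and 214 and 219 in WT in replicates 1 and 2. That difference was 0.48 ± 0.15 with an adjusted p of 0.0592, and the replicate 3 arrays were the highest in both genotypes. In 19 members (43.2%) both replicate 3 arrays lay outside the range of the other 4, against 45.3% of all genes, and in 36 (81.8%) the difference had the same sign in both genotypes, against 79.6%.

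**Figure D5:**
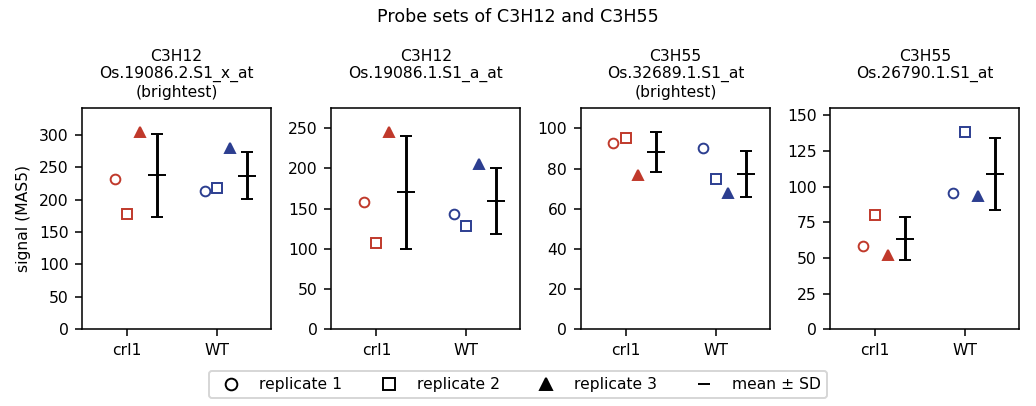
MAS5 signal (vertical axis from 0) of the brightest and a second probe set of C3H12 and of C3H55 on each *crl1* and WT array, with symbols for the replicate number and bars for mean ± SD over 3 arrays. Both C3H12 probe sets are highest in replicate 3, while the C3H55 probe sets differ in which genotype is higher.

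A test over both replicate differences, which singles out no replicate, called 4 members (9.09%, against 21.4% of probe sets). They were C3H60 and C3H37 with limma adjusted p of 0.000387 and 0.00571, and C3H35 and C3H9 with 0.0230 and 0.0298. In C3H9 it was replicate 2 that stood out, with 114 in *crl1* and 143 in WT, against 72.9 to 84.8 on the other 4 arrays. C3H35 was lowest in replicate 2 by its brightest probe set, with 214 in *crl1* and 269.9 in WT, against 350.1 to 375 on the other 4 arrays. By these probe sets, neither gene's replicate 2 arrays overlapped the rest. The other tested probe sets of C3H35 were split. The brighter of them was also lowest in replicate 2, with 84.3 in *crl1* and 78.0 in WT. The dimmer, with a geometric mean of 27.0, was highest there, with 29.7 in *crl1* and 40.0 in WT, against 19.5 to 28.2 elsewhere.

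Other genes moved with replicate 3 beside the C3H genes. All 7 tested circadian clock genes passed the same test, 1 higher (CCA1, a difference of 2.62) and 6 lower, among them GI with 154 and 161 in replicate 3, against 1476 to 1703 on the other 4 arrays. The summed signal of these 7 genes was 2794 in *crl1* and 2852 in WT in replicate 3, against 4864 to 5441 on the other arrays. Of the 3 tested meristem genes OSH1 was lower (-0.53, limma adjusted p of 0.0183), and their summed signal was 1518 in *crl1* and 1412 in WT, against 1639 to 2115. Of the green leaf genes CAB2R was lower (-1.11) and RBCS higher (0.77), with summed signals of 4762 in *crl1* and 4889 in WT, against 8379 to 9727. None of 5 root and 2 seed storage genes passed. Of the measured markers in these lists GLUA1 was near 0 on all arrays, and their part in the values of C3H60 and C3H37 was not tested. Probe sets with a signal of 1000 or more had a median difference of -0.31 in replicate 3, while in the brightness ranges that hold the members the medians over all probe sets lay between -0.07 and 0.02.

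Whether the replicate difference itself differed between the genotypes was tested as an interaction. No member passed, and none of the 25045 probe sets did. At an unadjusted p under 0.05 there were 0 members and 0.771% of probe sets. This fit had no term for replicate 1 against replicate 2, so changes that both genotypes shared between them stayed in its spread. The share of 0.771% is far below what that threshold gives without any difference, so the test was too strict. Its outcome does not show that replicate 3 acted alike in both genotypes. For C3H37, where the difference was -0.68 within *crl1* and -1.40 within WT, the interaction was 0.72 ± 0.46 with a limma p of 0.152 and an adjusted p of 1.00.

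Other rice zinc finger families were set beside the C3H genes by count. The lists hold only genes matched by symbol or synonym: 13 A20/AN1 (named SAP), 4 Dof, 8 zinc finger homeodomain and 6 WRKY genes. They may leave out other genes of these families, and most of their medians rest on few genes. In *crl1* against WT none passed of 12 tested A20/AN1 genes, 4 Dof genes, 2 zinc finger homeodomain genes and 4 WRKY genes. Their median log2 differences were -0.08, 0.17, 0.18 and 0.24, where the 44 C3H genes had -0.02. In replicate 3, 1 A20/AN1 gene was higher (SAP2, 0.83, limma adjusted p of 0.0174), as was 1 zinc finger homeodomain gene (ZHD10, 0.73, adjusted p of 0.0327), and no Dof or WRKY gene passed. The medians were 0.39 for the A20/AN1, 0.48 for the homeodomain, 0.24 for the Dof and 0.31 for the WRKY genes, against 0.04 for the C3H genes, which median centring of the arrays turned to -0.0019. Differences between families were not tested. The 4 genes found under the name ZFP were all A20/AN1 genes by a further name. PAB1, a poly(A)-binding protein and the only gene matched in a list for mRNA decay and the poly(A) tail, passed in neither comparison (0.00 in *crl1*, -0.11 in replicate 3).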

How the data were processed

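Total RNA from 3 *crl1* and 3 WT pools was measured on 1 GeneChip rice array each. The deposited values are linear intensity signals of 57381 probe sets, made per the labels with MAS5 in Affymetrix Expression Console, with versions not given in the sources used here. Hybridisation signals carry no read depth, and the number of arrays limits the precision. The authors' own comparisons were not used.

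Probe sets (123 controls left out) were named through the platform annotation and RefSeq gene names: 22436 had 1 gene, 95 several and 34727 none. Signals were log2-transformed without a pseudocount, filtered at a geometric mean of 20 and fitted with limma 3.58.1 in R 4.3.3 (lmFit, eBayes with a trend), tested on simulated data before use. Genotypes were compared with the replicate number as a block, replicates with genotype as a term, and p-values were adjusted over 25045 probe sets. The methods call the pools biological replicates.

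Same-numbered arrays of both genotypes deviated together from their genotype means (correlations of 0.39, 0.451 and 0.747 for replicates 1, 2 and 3). Unlike numbers gave 0.232 (*crl1* 2 with WT 1), 0.0596 (*crl1* 1 with WT 2) and -0.533 to -0.349 where either array was replicate 3. The numbers were taken to pair the arrays. Deviations within a genotype sum to 0, so these correlations depend on each other, and replicates 1 and 2 are told apart less clearly than replicate 3.

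Members and gene lists were chosen with earlier results of these data known. Genes named with values on each array were those with an unadjusted p under 0.05 in *crl1* against WT, those called in replicate 3, the 4 brightest, those with a further name, the 3 nearest the signal minimum on each side and the 3 most like C3H13. C3H9, C3H12, C3H15, C3H19, C3H35, C3H55 and C3H66 fall outside this rule and were added after their values were seen. Protein and promoter sequences of the members were not used here. Alternatives changed the block, the filter, scaling, pseudocount, trend, probe-set choice, threshold and arrays.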

Additional observations from a re-analysis of the deposited data

Results flagged for a closer look

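Some tested probe sets were not the brightest of their gene and stood outside the comparisons by gene, and 3 of them crossed a limit that the brightest did not: an unadjusted limma p of 0.05 between the genotypes or an adjusted p of 0.05 in replicate 3. For C3H55 the second probe set differed by -0.78 in *crl1* against WT (log2, adjusted p of 0.0673), where the brightest gave 0.19. For C3H18 the second probe set had 161, 152 and 135 in *crl1*, against 166, 196 and 197 in WT. Its difference was -0.32 ± 0.14 (p of 0.0410, adjusted p of 0.481), and that of the brightest was -0.11. For C3H12 the second probe set had 245 in *crl1* and 206 in WT in replicate 3, against 158 and 107 in *crl1* and 144 and 129 in WT in replicates 1 and 2. Its difference of 0.76 ± 0.19 passed the test (limma adjusted p of 0.0290), while the brightest gave 0.48 with an adjusted p of 0.0592.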

How the results depend on the processing

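In *crl1* against WT, 0 of 44 C3H genes were called with the replicate block and also with no replicate block, and under each of the 13 alternatives. The log2 differences of C3H6, C3H39, C3H2 and C3H13 kept their signs (0.23 to 0.35, 0.41 to 0.55, -0.36 to -0.24 and -0.44 to -0.30), with adjusted p no lower than 0.211. Over all tested probe sets 163 were called, but 0 without the variance trend, 5 with no replicate block, 28 at an adjusted p under 0.01 and 335 without replicate 1. In replicate 3 against replicates 1 and 2, 2 members were called, but 1 (C3H60) without the trend or at an adjusted p under 0.01, and 4 in the test over both replicate differences. Leaving out arrays gave 0 to 8 members: 8 without replicate 1, 4 without replicate 2, and 0 without the *crl1* or the WT array of replicate 3, where the lone array was taken to vary like the others. Over all tested probe sets 3987 were called, but 2300 without the trend, 1432 at an adjusted p under 0.01, 6325 without replicate 1, 374 without the *crl1* array and 278 without the WT array of replicate 3. The differences of C3H60 (1.13 to 1.81) and C3H37 (-1.40 to -0.68) kept their signs. The members' median in replicate 3 turned from 0.04 to -0.0019 with median centring. The cause of these changes was not tested. The interaction without replicate 1 or 2 was not run, since no residual degrees of freedom remain. With 3 arrays per genotype, small differences were not detectable, and an interval that excludes 0 was not enough for a call. C3H6, C3H39, C3H2 and C3H13 had such intervals in *crl1* against WT and did not pass. The second C3H55 probe set did not pass either, with a log2 difference of -0.78.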
